A study of Mus with 4 samples.

Results

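MHC class II molecules are paired chains on the surface of macrophages, dendritic cells and B cells, where they show peptides of engulfed proteins to CD4 T cells. Their genes are switched on together by the transactivator encoded by Ciita, which does not bind DNA itself but joins a complex of RFX, NF-Y and CREB proteins on their promoters. Ciita in turn is induced by interferon-gamma in many cell types and expressed constitutively in professional antigen-presenting cells. New class II molecules carry the invariant chain, whose last fragment is exchanged for a peptide by the H2-DM heterodimer in the endosome.

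The 7 genes described here are Ciita, the chain genes H2-Aa, H2-Ab1 and H2-Eb1, and the peptide-loading genes H2-DMa, H2-DMb1 and H2-DMb2. They were taken by platform gene symbol from 19505 genes named on the array, and all 7 were found, with 1 probe set each. All 7 also passed a filter on mean level that kept 10021 genes. They were chosen as a family already seen to differ between these arrays, so the values below are a description and no test is given for them.

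Expression was measured on 4 Affymetrix arrays, in RNA of tumors that grew under the skin. They grew for 2 weeks in the flanks of male BALB/cCrSlc mice, which were 4 to 6 weeks old at purchase and had then been fed for 17 weeks. The injected Renca cells come from a renal adenocarcinoma of the mouse and stably expressed either shNrf3, a short hairpin against the cap'n'collar transcription factor Nrf3 (gene Nfe2l3), or the control shCtrl. The groups are shNrf3 tumors on a high-fat diet (shNrf3-HFD), shCtrl tumors on that diet (shCtrl-HFD), shNrf3 tumors on normal chow (shNrf3-NC) and shCtrl tumors on normal chow (shCtrl-NC). Each group has 1 array. Whether an array holds RNA from 1 tumor or several, and whether a hairpin line is a clone, is not stated in the labels. The hairpin acts only in the injected cells, so the vessels, stroma and immune cells that the host supplies to a tumor carry no knockdown.

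The difference of any 2 arrays therefore has no replicate check, and no spread between tumors of a group is known. Precision is limited by the number of arrays. Values are log2 expression made by the authors with RMA, and a difference of 1 on that scale is 2-fold. Negative control rows had medians of 5.35 to 5.39 on the 4 arrays and 95th percentiles of 8.97 to 9.35. A reading below its array's control median was set to that median before a difference was taken. Differences that rest on a reading below the control 95th percentile are uncertain in size, also where this is not repeated below. Nfe2l3, the target of the hairpin, was not lower with shNrf3 in HFD. It read 6.05 on the shNrf3-HFD array against 5.77 on shCtrl-HFD, and 5.56 on shNrf3-NC against 6.22 on shCtrl-NC. All 4 readings lay near the control medians and below the control 95th percentiles. They therefore do not show whether Nfe2l3 was lowered in either diet. Every direction below thus rests on the array labels. The renal carcinoma label was met in part, since the epithelial keratin genes Krt8 and Krt18 read 14.32 to 15.90 on the 4 arrays while the renal tubule markers Cdh16, Pax8, Pax2 and Lrp2 lay below the control median on all of them.

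All 7 genes were 2-fold or more higher on the arrays labelled shNrf3, in both diets. The median difference over the 7 was 1.65 in HFD and 3.84 in NC, against medians of -0.14 and 0.14 over the 10021 filtered genes. In HFD 2.3% of filtered genes were 2-fold or more higher, in NC 13.2%, and in both diets 0.798%. In the other direction 6.95% were 2-fold or more lower in HFD and 4.47% in NC, and 0 of the 7 were. Since these contrasts are the ones the family was chosen on, nothing is read from the distance between 7 of 7 and those shares. The next paragraphs give the values by role.

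**Figure D1:**
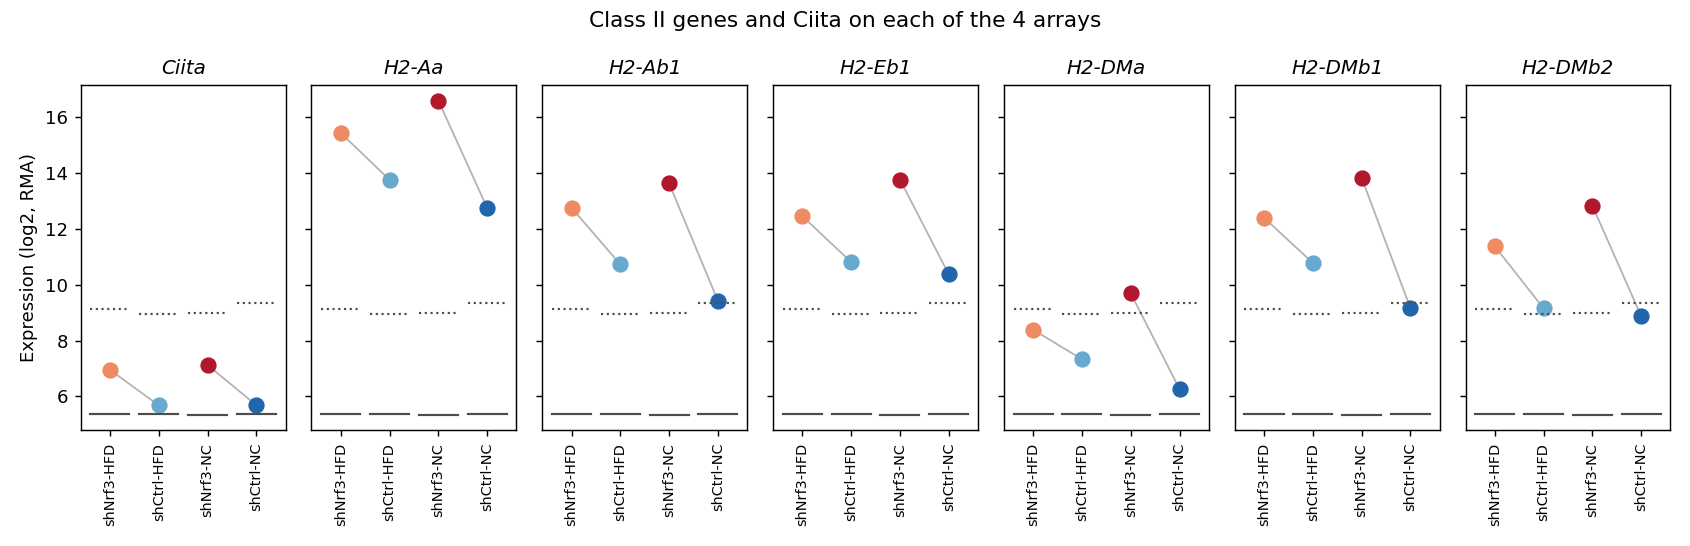
Log2 expression of the 7 genes (a panel each) on the 4 arrays, with grey lines joining the shNrf3 and shCtrl arrays of a diet, and short lines at the median (solid) and 95th percentile (dotted) of that array's negative control rows. In every panel the shNrf3 array lies above the shCtrl array of the same diet, and Ciita stays below the dotted line on all 4 arrays.

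Ciita, the transactivator, read 6.95 on the shNrf3-HFD array against 5.68 on shCtrl-HFD, and 7.13 on shNrf3-NC against 5.68 on shCtrl-NC. The shCtrl readings were thus alike and both shNrf3 readings higher, by 1.27 in HFD and 1.44 in NC. These are low readings. On the shCtrl arrays 56.5% (HFD) and 56.2% (NC) of the negative control rows lay below Ciita, and on the shNrf3 arrays 78.0% and 82.4%.

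The chain gene H2-Aa encodes the alpha chain of the I-A molecule. It read 15.44 on shNrf3-HFD against 13.76 on shCtrl-HFD, and 16.59 on shNrf3-NC against 12.75 on shCtrl-NC. This is a 3.20-fold difference in HFD (1.68 on the log2 scale) and a 14.3-fold difference in NC (3.84), with all 4 readings above the 95th percentile of the controls.

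Its partner H2-Ab1, the I-A beta chain gene, read 12.75 on shNrf3-HFD against 10.73 on shCtrl-HFD, a 4.08-fold difference (2.03). In NC it read 13.63 on shNrf3 against 9.42 on shCtrl, an 18.5-fold difference (4.21). The shCtrl-NC reading lies just above that array's control 95th percentile of 9.35. For H2-Eb1, the beta chain gene of the I-E molecule, the readings were 12.46 on shNrf3-HFD and 10.81 on shCtrl-HFD (3.13-fold, 1.65), and 13.77 on shNrf3-NC and 10.37 on shCtrl-NC (10.5-fold, 3.40). The chain genes thus kept the same order of arrays, and their differences ran from 1.65 to 2.03 in HFD and from 3.40 to 4.21 in NC.

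H2-DMa, which encodes the alpha chain of the H2-DM loading factor, read 8.39 on shNrf3-HFD against 7.33 on shCtrl-HFD, a difference of 1.06. It read 9.69 on shNrf3-NC against 6.26 on shCtrl-NC, a difference of 3.43. Only the shNrf3-NC reading of H2-DMa lay above the 95th percentile of the controls, so its fold differences are uncertain in size.

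H2-DMb1 and H2-DMb2 encode alternative beta chains of H2-DM and are close in sequence, so a probe set of one may take up signal of the other. H2-DMb1 read 12.40 on shNrf3-HFD against 10.78 on shCtrl-HFD (1.62), and 13.84 on shNrf3-NC against 9.16 on shCtrl-NC (4.67, the largest NC difference of the 7). H2-DMb2 read 11.38 on shNrf3-HFD against 9.15 on shCtrl-HFD (2.22, the largest HFD difference of the 7), and 12.83 on shNrf3-NC against 8.87 on shCtrl-NC (3.96). Both shCtrl-NC readings lie below the control 95th percentile of that array. The class II genes are also highly polymorphic between mouse strains. All 4 arrays hold tumors in one strain, so an allele that hybridizes poorly would do so on each of them.

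For the 6 class II genes, the shNrf3 difference in HFD was 30.7% (H2-DMa) to 56.2% (H2-DMb2) of that in NC on the log2 scale, and for Ciita it was 88.1%. Since Ciita lay below the control 95th percentile on all 4 arrays, and near the control median on both shCtrl arrays, its values do not show how diet and hairpin combined for it. The HFD difference minus the NC difference was -1.73 to -3.06 for the 6 genes and -0.17 for Ciita, which turned to 0.25 after centring on the median of the filtered genes. It was -1 or lower for 6 of the 7, where 21.7% of the filtered genes were, and 1 or higher for 0 of the 7 (6.37%).

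**Figure D2:**
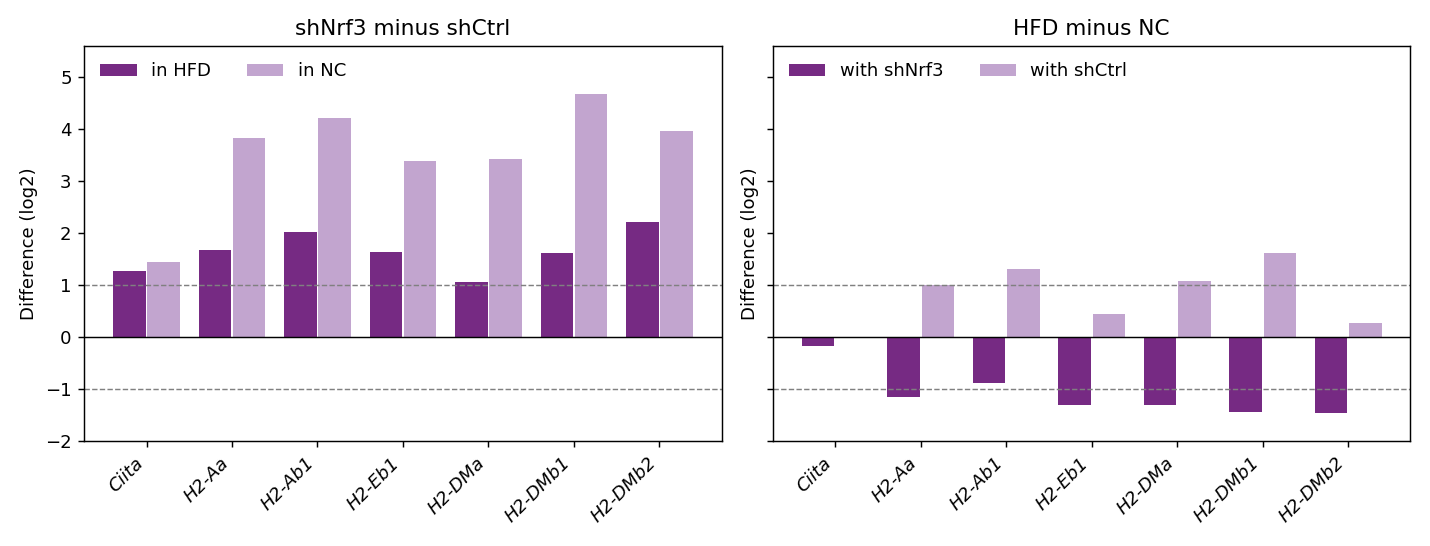
Log2 differences of the 7 genes between arrays, shNrf3 minus shCtrl in each diet (left) and HFD minus NC with each hairpin (right), with dashed lines at 2-fold. The shNrf3 differences of all 7 lie above 1 in both diets, while the diet differences of the 6 class II genes lie below 0 with shNrf3 and above 0 with shCtrl.

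Read by diet, the same 4 values gave opposite directions with the 2 hairpins. With shNrf3, HFD minus NC was below 0 for all 7 genes, from -0.17 (Ciita) to -1.45 (H2-DMb2), with a median of -1.30. With shCtrl it was above 0 for the 6 class II genes, from 0.28 (H2-DMb2) to 1.62 (H2-DMb1), and 0.00 for Ciita. Counted at 2-fold, 5 of the 7 were lower in HFD with shNrf3, beside 4.93% of filtered genes, and 4 of the 7 were higher in HFD with shCtrl, beside 14.5%. In the opposite directions 0 of the 7 were higher with shNrf3 (1.76% of filtered genes) and 0 lower with shCtrl (3.79%). A difference above 0 with shCtrl and below 0 with shNrf3 was common, at 35.6% of filtered genes, against 6 of the 7. The diet differences use the same arrays as the hairpin differences and are not separate evidence. The shCtrl diet differences were also the least stable. After cyclic loess between arrays, and after centring on the median of the filtered genes, 1 of the 7 in place of 4 was 2-fold higher (H2-DMb1), and H2-DMb2 turned to -0.03 and -0.04. Of the filtered genes 9.09% and 7.06% were 2-fold higher there under those scalings.

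The order of arrays was the same for the 6 class II genes, with shCtrl-NC lowest, then shCtrl-HFD, then shNrf3-HFD, and shNrf3-NC highest. That order was found in 6.89% of filtered genes. Ciita differed from it only in that its shCtrl readings were level, 5.683 in HFD and 5.684 in NC, and its order was that of 2.49% of filtered genes. These orders are those of the deposited values. After cyclic loess, and after centring on the filtered genes, shCtrl-HFD was the lowest array for H2-DMb2. The shCtrl diet difference of H2-Eb1 was then 0.10 and 0.12. The diet difference averaged over both hairpins ran from -0.59 (H2-DMb2) to 0.22 (H2-Ab1). In this average the opposite directions of the 6 class II genes offset each other. H2-DMb1, for example, averaged 0.09 from 1.62 with shCtrl and -1.44 with shNrf3. The shNrf3 difference averaged over both diets ran from 1.36 (Ciita) to 3.14 (H2-DMb1).

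Counts over all genes depended on the scaling of the arrays. Of the filtered genes past 2-fold, 24.8% were higher with shNrf3 in HFD (20.2% to 56.3% under 3 other scalings) and 74.6% in NC (53.5% to 83.1%). For HFD minus NC, 26.3% were higher with shNrf3 (22.0% to 41.1%) and 79.3% with shCtrl (45.9% to 86.7%). For the HFD difference minus the NC difference it was 22.7% (14.6% to 55.1%). Under each of those scalings all 7 genes were 2-fold or more higher with shNrf3 in both diets, with a lowest value of 1.01 (H2-DMa in HFD, after centring on the median of transcript rows).

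The 6 class II genes lie close together on mouse chromosome 17 in the RefSeq gene order, in 2 runs of 3 with genes of the class I pathway between them. This position was not used to choose them. Of 21 protein-coding genes in the stretch, counting 5 beyond each end, 6 are the class II genes described here and 15 are neighbours. Between the runs lie Psmb9 and Psmb8, which encode immunoproteasome subunits, Tap1 and Tap2, which encode the peptide transporter for class I loading, and H2-Ob.

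In NC these 4 class I pathway genes were higher with shNrf3 as the class II genes were. Psmb9 differed by 4.14, Tap1 by 2.91, Psmb8 by 1.61 and Tap2 by 1.48. In HFD their differences were 0.15 (Psmb9), 0.74 (Tap1), 0.49 (Psmb8) and -0.15 (Tap2), none of them 2-fold, while those of the 6 class II genes on either side ran from 1.06 to 2.22. Psmb9 read 10.39 on shNrf3-HFD against 10.24 on shCtrl-HFD, and 12.39 on shNrf3-NC against 8.25 on shCtrl-NC. Thus its 2 HFD arrays were level where those of its class II neighbour H2-DMb1 were 1.62 apart.

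The genes at the edges of the stretch did not share these differences. Brd2, a broadly expressed bromodomain gene next to H2-DMa, read 12.32 on shNrf3-HFD against 12.62 on shCtrl-HFD, and 12.87 on shNrf3-NC against 12.68 on shCtrl-NC. Over the 10 outer neighbours the differences ran from -0.29 to 0.83 in HFD and from -0.18 to 0.46 in NC, with 0 of 10 past 2-fold in either direction. Of these 10, 6 lay below the control median on all 4 arrays.

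**Figure D3:**
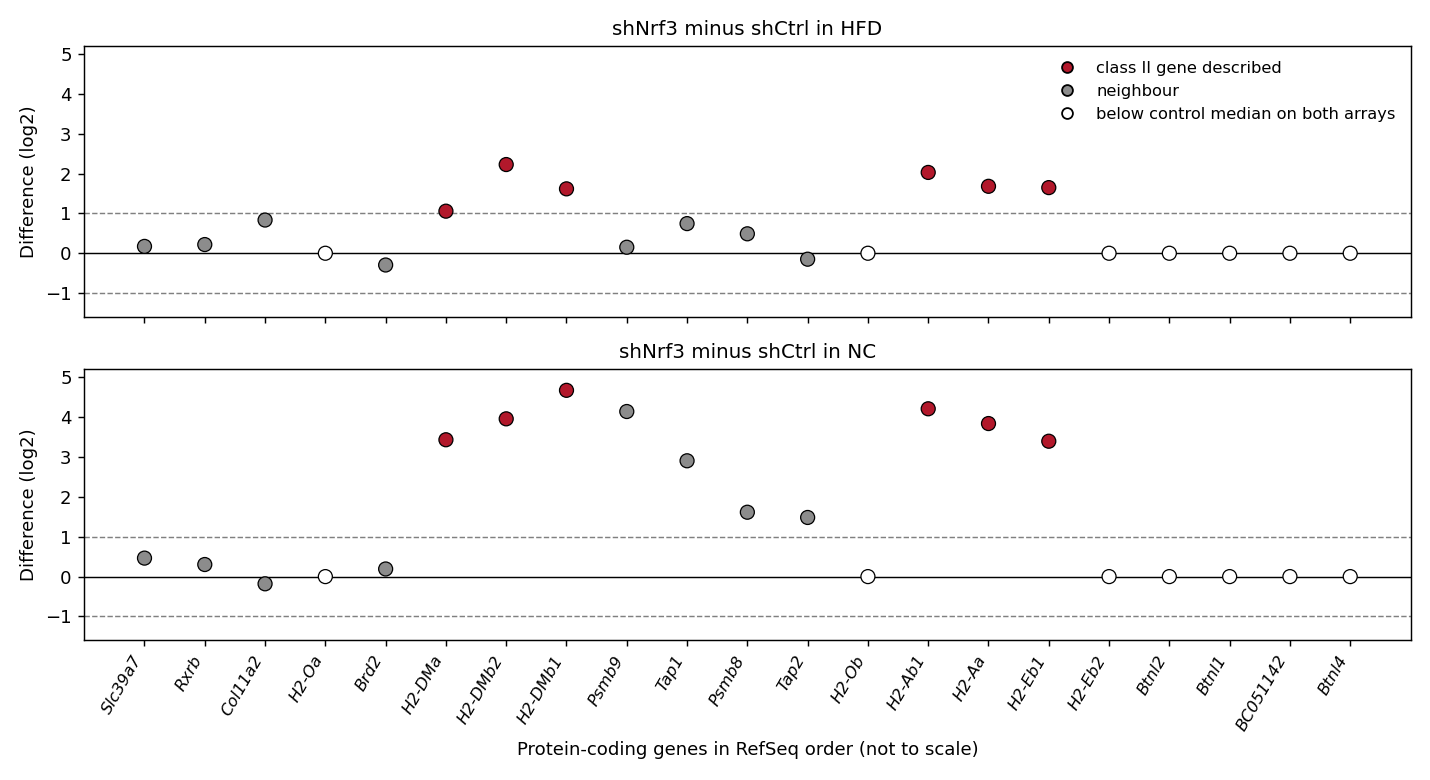
Log2 difference, shNrf3 minus shCtrl, for 21 neighbouring protein-coding genes in RefSeq order, in HFD (top) and NC (bottom), with dashed lines at 2-fold. The 4 class I pathway genes between the class II runs lie at 1.48 or more in NC and at 0.74 or less in HFD, and open points mark genes below the control median on both arrays.

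The further class II chain genes H2-Oa, H2-Ob and H2-Eb2 gave no signal to compare. H2-Oa and H2-Ob form the H2-DO inhibitor of H2-DM, which is found mainly in B cells. H2-Oa read 5.02 on shNrf3-HFD, 4.78 on shCtrl-HFD, 4.75 on shNrf3-NC and 4.53 on shCtrl-NC. H2-Ob read 4.30 to 5.18 and H2-Eb2 3.94 to 4.66. All 3 lay below the control median on every array. H2-Ea, the partner of H2-Eb1, and the invariant chain gene Cd74 were not analysed here.

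Of 11 measured genes that supply class II molecules with peptides or remove them, 1 was 2-fold or more higher with shNrf3 in HFD and 5 in NC. In either diet 0 of the 11 were 2-fold or more lower. Of filtered genes 2.3% were higher in HFD and 13.2% in NC, and 6.95% and 4.47% lower. Median differences of the 11 were 0.37 and 0.73, against 1.65 and 3.84 for the 7 genes, which were chosen on these contrasts. Marchf1, a ubiquitin ligase that removes class II molecules from the cell surface, was the gene past 2-fold in both diets. It read 8.70 on shNrf3-HFD against 7.54 on shCtrl-HFD (1.16), and 8.72 on shNrf3-NC against 6.79 on shCtrl-NC (1.93). Each Marchf1 reading lay below its array's control 95th percentile, so these differences are uncertain in size. Ifi30, the lysosomal thiol reductase that unfolds antigens, differed by 0.81 in HFD and 2.54 in NC, where it read 13.27 on shNrf3 against 10.73 on shCtrl. The cathepsin genes Ctss, which trims the invariant chain, Ctsb and Ctsh differed by 0.72, 0.16 and -0.47 in HFD and by 1.60, 1.42 and 1.19 in NC.

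Genes of proteins that hold Ciita's product on the class II promoters, or act with it there, mostly differed by less than 2-fold with shNrf3. Of 10 measured, 0 were 2-fold higher with shNrf3 in either diet and 1 was lower in NC, the acetyltransferase gene Ep300 (-1.11, and -0.39 in HFD). Their medians were -0.07 in HFD and -0.01 in NC. Of filtered genes 2.3% were higher in HFD and 13.2% in NC, and 4.47% were lower in NC. Rfx5, a subunit of the RFX complex, read 7.93 on shNrf3-HFD against 8.82 on shCtrl-HFD, a difference of -0.89. In NC it read 7.85 on shNrf3 against 7.76 on shCtrl, so that shCtrl-HFD alone stood higher. The other RFX subunit genes Rfxap and Rfxank differed by -0.93 and -0.40 in HFD, and by -0.15 and 0.62 in NC. Rfx5, Rfxap and Rfxank lay below the control 95th percentile on every array, so their differences are uncertain in size. Carm1, an arginine methyltransferase that acts with Ciita's product, differed by -0.05 in HFD and 0.85 in NC, and by 1.44 between HFD and NC with shCtrl.

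Among 13 measured regulators of Ciita, 1 was past 2-fold with shNrf3 in both diets. Prdm1, whose product represses Ciita in plasma cells, read 7.51 on shNrf3-HFD against 10.80 on shCtrl-HFD (-3.29), and 7.49 on shNrf3-NC against 10.31 on shCtrl-NC (-2.83). Its 2 shNrf3 arrays were level, and so low relative to both shCtrl arrays by a similar amount in each diet. Both shNrf3 readings of Prdm1 lay below the control 95th percentile of their array, so its differences are uncertain in size. The list's median differences were 0.00 and 0.10, with 0 members higher in HFD, 2 higher in NC and 1 lower in each. Of filtered genes 2.3% were higher in HFD and 13.2% in NC, and 6.95% and 4.47% lower, so the counts of the list lie near these shares. The 2 higher in NC were Spi1, the myeloid transcription factor PU.1 (0.00 in HFD and 1.89 in NC), and Socs1, a feedback inhibitor of interferon signalling (0.40 or more in HFD and 1.34 or more in NC, with both shCtrl readings below the control median).

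Ifng, the inducer itself, was near the controls. It read 6.29 on shNrf3-HFD and 5.49 on shNrf3-NC, while both shCtrl arrays lay below their control medians, at 4.53 in HFD and 4.71 in NC. With those readings set to the medians the differences were 0.93 or more in HFD and 0.11 or more in NC. Irf1, an interferon-gamma target that binds the Ciita promoter, differed by 0.42 in HFD and 0.52 in NC, at levels of 13.45 to 14.06.

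Of 8 measured co-stimulatory and partner genes, 2 were 2-fold or more higher with shNrf3 in HFD and 1 lower, and 3 higher and 0 lower in NC, with medians of 0.25 and 0.19. Of filtered genes 2.3% were higher and 6.95% lower in HFD, and 13.2% higher and 4.47% lower in NC. Past 2-fold in both diets were 2 of the 8, where 0.798% of filtered genes were higher in both. These were the genes of both PD-1 ligands. Cd274 read 10.49 on shNrf3-HFD against 9.16 on shCtrl-HFD (1.33), and 11.15 on shNrf3-NC against 9.45 on shCtrl-NC (1.70). Pdcd1lg2 differed by 1.28 in HFD and 2.66 in NC. The CD28 ligand gene Cd86 differed by 0.10 in HFD and 1.73 in NC, and Cd40 by 0.54 and -0.69. Cd4, whose product binds class II molecules on T cells, read 5.84 on shNrf3-HFD against 7.14 on shCtrl-HFD (-1.30), and 6.72 on shNrf3-NC against 7.05 on shCtrl-NC (-0.34). Cd86, Cd40 and Cd4 lay below the control 95th percentile on every array, and Pdcd1lg2 on every array but shNrf3-NC. The differences of these genes are thus uncertain in size.

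Markers of cells that carry class II molecules moved with these genes in part. In bulk tumor RNA, fewer cells of a type and less RNA per cell cannot be told apart. Of 15 measured macrophage and monocyte markers 4 were 2-fold or more higher with shNrf3 in HFD and 11 in NC, beside 2.3% and 13.2% of filtered genes. C1qb (-0.65), Cd14 (-0.31) and Mertk (-0.17) were below 0 in HFD. Median differences of the 15 were 0.55 and 1.27, and 0 were 2-fold or more lower (6.95% and 4.47% of filtered genes). Their summed linear signal was 109658 on shNrf3-HFD against 63953 on shCtrl-HFD, and 147835 on shNrf3-NC against 54995 on shCtrl-NC, of which Lyz2 made 53.6% to 65.4%. Without Lyz2 it was 39797 on shNrf3-HFD against 29675 on shCtrl-HFD, and 51090 on shNrf3-NC against 20490 on shCtrl-NC. None of the 15 lay below the control median on any array. The F4/80 gene Adgre1 differed by 0.65 in HFD and 0.70 in NC, the mannose receptor gene Mrc1 by 0.65 and 1.05, and the lysozyme gene Lyz2 by 1.03 and 1.49. The largest marker difference was 1.53 in HFD (Ccr2) and 2.50 in NC (Ly6c2). The 6 class II genes, which were chosen on these contrasts, ran from 1.06 to 2.22 and from 3.40 to 4.67. Pan-leukocyte genes had medians of 0.41 in HFD and 1.22 in NC, with 0 and 4 of 5 past 2-fold higher (2.3% and 13.2% of filtered genes). Ptprc, which encodes CD45, differed by 0.56 and 0.88 and Laptm5 by -0.11 and 1.22. Their summed signal was 16654 on shNrf3-HFD against 14140 on shCtrl-HFD, and 22161 on shNrf3-NC against 9010 on shCtrl-NC. The part of more leukocytes in the class II differences was not tested.

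Part of the dendritic cell markers and most B cell markers lay below the control median. Of 12 dendritic cell markers 5 lay below the control median on all 4 arrays, among them Flt3, Zbtb46, Xcr1 and Clec9a. Median differences were 0.00 in both diets, with 1 of 12 lower in HFD (Fscn1) and 1 higher in NC, the activation marker gene Cd83 (-0.19 in HFD and 1.11 in NC). Of filtered genes 6.95% were lower in HFD and 13.2% higher in NC. The CD11c gene Itgax differed by 0.05 in HFD and -0.40 in NC, and Clec10a by -0.15 and -0.30. Fscn1, an actin-bundling gene that tumor cells also express, stood well above the controls at 12.11 to 13.27 and differed by -1.16 and -0.73. Their summed signal was 5256 on shNrf3-HFD against 10727 on shCtrl-HFD, and 5286 on shNrf3-NC against 8134 on shCtrl-NC, of which Fscn1 alone made 83.8% to 92.2%. Without it the sums were 814 on shNrf3-HFD against 832 on shCtrl-HFD, and 857 on shNrf3-NC against 793 on shCtrl-NC. Of 9 measured B and plasma cell markers 7 lay below the control median on all arrays, including Ms4a1, Cd79a and Pax5. Their median differences were 0.00 in both diets, and 1 of 9, the joining chain gene Jchain, was past 2-fold in NC (1.37, and 0.52 or more in HFD). In NC 13.2% of filtered genes were 2-fold or more higher. Fcer2a differed by -0.88 in HFD and 0.19 in NC. The summed signal was 300.4 on shNrf3-HFD against 355 on shCtrl-HFD, and 551 on shNrf3-NC against 442 on shCtrl-NC. Without Fcer2a, its brightest gene, it was 173 against 120.3 in HFD and 266 against 193 in NC, shNrf3 against shCtrl.

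T cell markers differed with shNrf3 in NC and not in HFD by the 2-fold count. Of 9 measured, 0 were past 2-fold in HFD and 3 were higher in NC, with medians of 0.00 and 0.70, all at levels near the controls. Cd3e read 5.01, below the control median, on shNrf3-HFD against 5.71 on shCtrl-HFD, and 7.05 on shNrf3-NC against 5.37, just below it, on shCtrl-NC. Cd2 differed by 0.05 in HFD and 0.42 in NC, and Il7r by 0.80 and 0.98. The summed signal was 472 on shNrf3-HFD against 411 on shCtrl-HFD, and 1238 on shNrf3-NC against 589 on shCtrl-NC. Without Il7r, its brightest gene, it was 258 against 287 in HFD and 873 against 405 in NC, shNrf3 against shCtrl.

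The shNrf3-NC array, the highest for all 7 genes, also had the highest summed signal of the muscle and of the fat markers. Mb, Actn3 and Plin1 read highest on other arrays, and Lep lay below the control median on all. Of 8 skeletal muscle markers 6 were 2-fold or more higher with shNrf3 in NC and 3 lower in HFD, with medians of 2.41 and -0.18, beside 13.2% and 6.95% of filtered genes. Acta1 read 12.51 on shNrf3-NC and 4.73 to 6.48 on the other arrays. Tnnt3 differed by -1.75 in HFD and 1.68 in NC, and Tnni2 by -0.32 and 2.54. Of 7 adipocyte markers 5 were lower with shNrf3 in HFD and 5 higher in NC, with medians of -1.33 and 1.55. Of filtered genes 6.95% were lower in HFD and 13.2% higher in NC. Fabp4, which macrophages also express, differed by -1.33 and 1.55, Adipoq by -1.33 and 3.35, and Cidec by -1.84 and 2.29. In HFD the class II genes were higher, and 5 adipocyte markers lower, on the shNrf3 array than on the shCtrl array. The summed muscle signal was 735 on shNrf3-HFD against 1559 on shCtrl-HFD, and 14203 on shNrf3-NC against 1470 on shCtrl-NC. The summed adipocyte signal was 20268 against 51323 in HFD and 64632 against 19887 in NC, shNrf3 against shCtrl in each case, and Fabp4 alone made 85.1% to 96.2% of it. Without Fabp4 it was 778 against 2323 in HFD and 9618 against 1048 in NC. The part of other tissue in the HFD and NC differences was not tested.

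**Figure D4:**
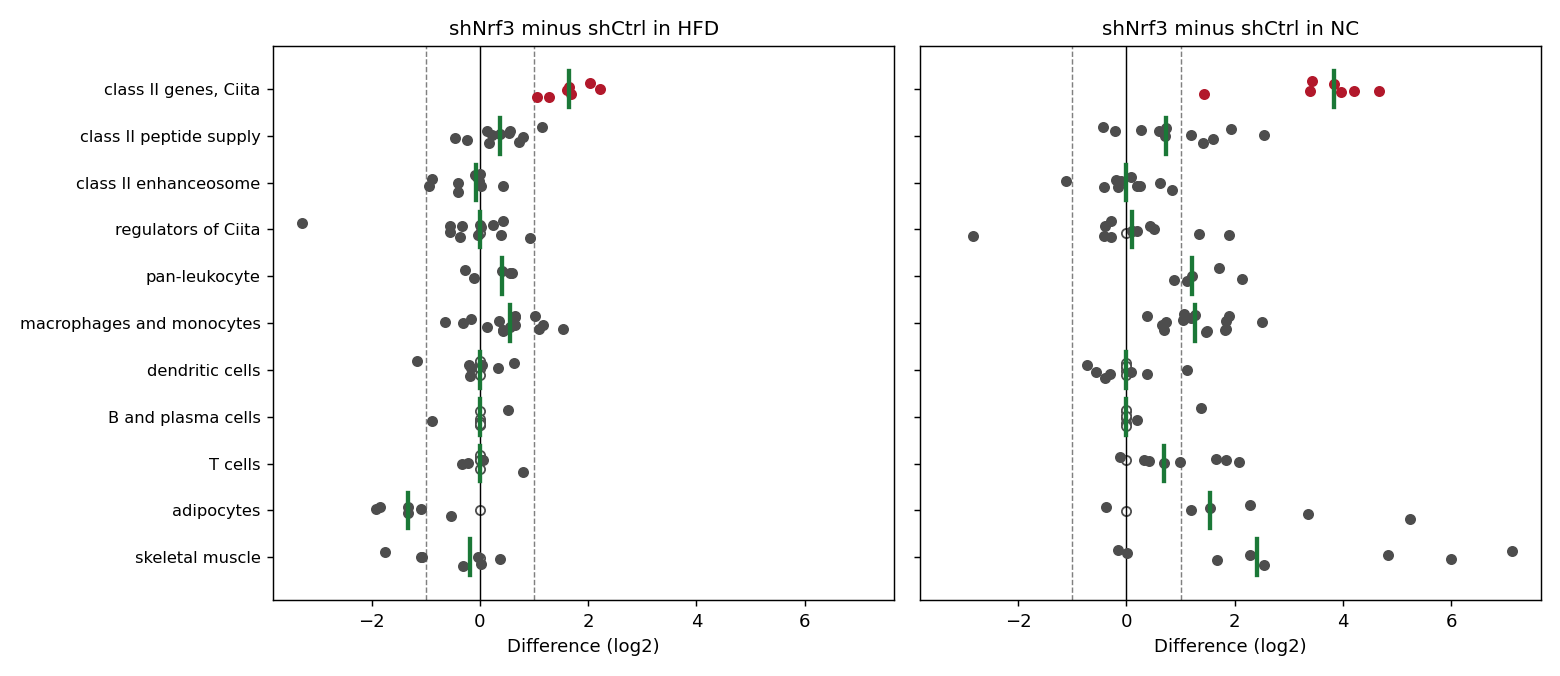
Log2 difference, shNrf3 minus shCtrl, in HFD (left) and NC (right), for the 7 genes (red) and the measured members of 10 gene lists (grey, open where both arrays lay below the control median), with green bars at the medians and dashed lines at 2-fold. The median of the 7 genes is 1.65 in HFD and 3.84 in NC, against 0.55 and 1.27 for macrophage and monocyte markers. The 7 genes were chosen on these contrasts.

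Genes with the most similar pattern were ranked by the root mean squared distance between their centred values on the 4 arrays and the median centred profile of the 7 genes. The nearest was Fcgr4, an activating IgG receptor gene of myeloid cells, at a distance of 0.10 (log2). It differed by 1.66 in HFD and 3.87 in NC. The next were Slc15a3, a lysosomal peptide and histidine transporter gene (0.12), the granzyme gene Gzmb (0.20) and Iigp1, an interferon-induced GTPase gene (0.22). Clec12a, Il18bp, H2-M3, Slc11a1, Acod1 and Gbp4 followed at 0.24 to 0.38. The class II genes themselves lay at 0.09 (H2-Aa) to 0.39 (H2-DMb1) and Ciita at 0.79. The profile was made from these 7 genes, so their own distances are not comparable with those of other genes. Over only 4 arrays such a ranking is a description, and 77 genes beside the 7 had a correlation over 0.99 with the profile.

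The genes nearest to Ciita were others. They were Lcp2, an adaptor gene of leukocyte receptors (0.09), Tnfsf10, which encodes TRAIL (0.10), Lyz2 (0.12), the receptor accessory gene Ramp1 (0.12) and the inhibitory IgG receptor gene Fcgr2b (0.12). Lcp2 read 8.02 on shNrf3-HFD against 6.92 on shCtrl-HFD, and 8.40 on shNrf3-NC against 6.97 on shCtrl-NC. Both shNrf3 readings of Lcp2 were the higher ones, but Lcp2 lay below the control 95th percentile on every array. This ranking rests on a Ciita profile whose shCtrl readings lie near the control median, so it is a weak description.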

How the data were processed

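Total RNA (100 ng) of each tumor sample was labelled with biotin and hybridized, per the labels' protocols. The deposited values are log2 expression, for which the authors used RMA in Affymetrix Expression Console, per the submitters' processing notes. No version, and no genome build, is given in the sources used here. Of 28846 rows, 22206 hold transcripts and 5222 negative controls. The platform annotation gave 1 gene symbol for 19572 probe sets, several for 0 and none for 2634 transcript rows. All 19572 Entrez IDs matched RefSeq genes of GRCm38.p6, used only for names and gene order. For the 55 genes with several probe sets the one with the highest mean was taken. Genes passed the filter at a mean of 5.73, the median over rows.

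Differences and counts at 2-fold were computed in Python 3.11.15 with pandas 2.3.3, and tested on simulated data. No fit or p-value is given, since each group has 1 array. Alternatives were cyclic loess (limma 3.58.1 in R 4.3.3), centring on the median of transcript rows, probe set means, no floor, other level filters, a 1.5-fold threshold and, for the likeness ranking, correlation. Centring on the filtered genes was added after seeing the data.

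The members and lists were chosen with earlier results of these data known. Of each pathway list the further class II chains, the genes past 2-fold in a comparison and Rfx5, Ifng and Irf1 are named. Of each cell type list the first listed and the 2 with the highest means are named, then the 10 genes nearest to the 7 and the 5 nearest to Ciita. Other names (neighbouring genes, RFX subunit genes, and markers named for their level, their difference or their highest array) were chosen after their values were seen. Some list members were not analysed here.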

Additional observations from a re-analysis of the deposited data

Results flagged for a closer look

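The diet difference had opposite directions with the 2 hairpins for 6 of the 7 genes, with 1 array behind each value, and the difference between hairpins was not tested. The same signs were found in 35.6% of filtered genes. HFD minus NC was -1.16 with shNrf3 and 1.004 with shCtrl for H2-Aa, -0.87 and 1.31 for H2-Ab1, and -1.31 and 0.44 for H2-Eb1. For the loading genes it was -1.30 with shNrf3 and 1.07 with shCtrl (H2-DMa), -1.44 and 1.62 (H2-DMb1), and -1.45 and 0.28 (H2-DMb2). The shCtrl value of H2-DMb2 was -0.03 after cyclic loess and -0.04 after centring on the filtered genes, so that its directions were then no longer opposite.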

How the results depend on the processing

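Under the 3 other scalings the 7 genes were 2-fold or more higher with shNrf3 in both diets. The remaining alternatives could not change a difference of the 7, since each has 1 probe set and no reading below the control median, and filters and threshold enter only the counts. A filter at 8.45 would drop Ciita and H2-DMa. The scalings moved the medians of the 7. After cyclic loess they were 3.54 in NC (shNrf3 minus shCtrl), 0.64 for HFD minus NC with shCtrl, with 1 gene in place of 4 past 2-fold, and -1.78 for the HFD difference minus the NC difference. After centring on the filtered genes they were 1.86 in HFD, 3.63 in NC, 0.69 with shCtrl, again with 1 gene past 2-fold, and -1.74, and the median of the 45 other pathway genes in HFD was 0.21 in place of 0.00. There the Ciita difference in HFD minus that in NC was 0.25 in place of -0.17. Single values of the 7 genes moved by over 0.2 in 16 of 35 cases after loess and in 28 of 35 after centring on the filtered genes, and in 0 of 35 after centring on the median of transcript rows. Ranked by Pearson correlation, 3 of the 10 genes nearest to the 7 were again among the first 10. No paired analysis was possible because each group has 1 array. Signal over background limits Ciita and H2-DMa most.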

Other observations

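Lists of stromal, vessel and epithelial genes had median differences of 0.00 or lower. Of filtered genes 6.95% were 2-fold or more lower with shNrf3 in HFD and 4.47% in NC, and 2.3% and 13.2% higher. All 7 measured fibroblast genes were 2-fold or more lower with shNrf3 in HFD and 3 in NC (medians -1.92 and -0.83), with Col3a1 at -1.92 and -0.83, Postn at -1.41 and -2.13 and Col1a1 at -1.17 and -0.34. Of 7 endothelial markers 3 were lower in HFD and 4 in NC, against 0 and 1 higher (medians -0.51 and -1.25). Among them Cdh5 differed by -1.61 and -1.97, Pecam1 by -0.24 and -0.65 and Eng by 0.13 and 1.29. Of 11 epithelial and renal tubule markers 1 was higher in each diet, Car9 (1.14 in HFD and 2.75 in NC). In HFD 0 were lower and in NC 1 (medians -0.29 and 0.00). These medians count as 0 the 4 markers that lay below the control median on all arrays. Epcam differed by -0.49 and -1.56, Krt18 by -0.69 and -0.71 and Krt8 by -0.29 and -0.10.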
